A study of Oryza sativa with 13 samples.

Results

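DNA methylation peaks of rice embryo were set against those of rice endosperm at 3 days after pollination (DAP). Both tissues came from the japonica cultivar Zhonghua11 (ZH-11), grown under controlled light, and were dissected by hand from developing seeds under a microscope. The comparison used 2 of the 13 samples of the series, 1 embryo library and 1 endosperm library, chosen by cultivar, tissue and stage. Their 2 peak lists held 88020 peaks, 51509 in embryo and 36511 in endosperm. The other 5 ZH-11 libraries, embryo at 6 and 9 DAP and endosperm at 2, 6 and 9 DAP, served to look up the same regions, and the 6 samples of the indica cultivar 93-11 were not analysed here. With 1 library per tissue at 3 DAP there was no replicate, so no difference was tested, and the intervals given below cover counting error only. Whether each dissected tissue was free of the other was not tested, since peak lists carry no expression markers.

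In methylated DNA immunoprecipitation, an antibody against 5-methylcytosine captures fragments that are then sequenced, and stretches with more captured reads than their surroundings are listed as peaks. Plants methylate cytosines in CG, CHG and CHH contexts, where H is any base but G, and the antibody does not separate these contexts. Methylation is densest over transposons and repeats, which in rice are concentrated around the centromeres, while gene-rich arms carry more scattered methylation. The endosperm is the nutritive tissue of the seed and arises from the fertilised central cell. In that cell, DNA glycosylases of the DEMETER family remove methylated cytosine from the maternal genome, and endosperm is known for lower methylation than the embryo beside it. Peaks are given below by position only. No gene was assigned to them, because the genome build of the lists is not given in the sources used here.

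Embryo had more peaks, and they were shorter. After filtering, the embryo library held 8062289 tags (aligned reads) and the endosperm library 7268516, a ratio of 1.11. Peaks took 59.6% of these tags in embryo and 57.4% in endosperm. Embryo had 1.41 times the peak number of endosperm but 1.19 times its covered length, a ratio that turned to 0.915 when both lists were limited to equal numbers of their highest-scoring peaks. Neighbouring peaks stood a median of 4194 bp apart in embryo, against 5370 bp in endosperm. Embryo peaks had a median length of 891 bp and endosperm peaks one of 975 bp, and the gap widened at the long end, with 90th percentiles of 1812 bp in embryo and 2353 bp in endosperm. Peaks of at least 3 kb numbered 1065 in embryo and 1988 in endosperm and held 7.62% of the covered length in embryo and 17.7% in endosperm. Median fold enrichment, which the authors give as tags at a peak's summit over a background from the surrounding stretch, was 6.66 in embryo and 6.63 in endosperm.

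Many methylated sites of the embryo had no counterpart in the endosperm, and the reverse was less frequent. A peak was called embryo-only or endosperm-only when it shared no base with a peak of the other list. Embryo-only peaks numbered 22277, which is 43.2% of the embryo list (95% exact interval 42.8 to 43.7). Endosperm-only peaks numbered 7777, which is 21.3% of the endosperm list (95% exact interval 20.9 to 21.7). Embryo-only peaks held 18.3 Mb, or 32.8% of the covered length of their list, and endosperm-only peaks 7.25 Mb, or 15.5% of theirs. In tags they were a smaller part, 30.7% of the tags in embryo peaks and 12.2% of those in endosperm peaks. Bases covered in both tissues came to 33.5 Mb, 60.0% of the embryo length and 71.5% of the endosperm length. At least 50% of the peak was covered by the other tissue in 97.2% of the overlapping embryo peaks and 96.2% of the overlapping endosperm peaks. An absent peak means that the other library had nothing above its calling limit there. It gives no tag number for that library, and the smallest listed peak had 25 tags in the embryo list and 24 in the endosperm list. When only the 36511 highest-scoring embryo peaks were kept, so that both lists were equally long, the shares were 37.1% for embryo and 36.9% for endosperm. Lists of equal length that overlap mostly 1 peak to 1 give near-equal shares by construction, so the unequal shares above go with the unequal list lengths.

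The unmatched peaks of the tissues differed in kind. Embryo-only peaks were short but as enriched as the other embryo peaks, with a median length of 735 bp against 1072 bp for overlapping embryo peaks and a median fold enrichment of 6.70 against 6.62. Endosperm-only peaks were short too, with 774 bp against 1051 bp for overlapping endosperm peaks, and their fold enrichment was lower, 5.94 against 6.93. The score, 10 times the negative base-10 logarithm of the peak's p-value, was lower in the unmatched peaks of both tissues. Its median was 102 in embryo-only and 152 in overlapping embryo peaks, and 76.8 in endosperm-only and 156 in overlapping endosperm peaks. Tag density, in reads per 1000000 filtered tags (RPM) per kb, had medians of 9.22 in embryo-only and 10.1 in overlapping embryo peaks, and 8.51 in endosperm-only and 11.0 in overlapping endosperm peaks.

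Across classes of fold enrichment, the embryo-only share of embryo peaks was 37.6% below a fold of 5, 45.7% between 5 and 7, 43.7% between 7 and 10, 42.4% between 10 and 15 and 34.2% at 15 or more. The endosperm-only share of endosperm peaks fell along the same classes, at 29.1%, 27.6%, 15.5%, 4.91% and 0.518%. In the top class this was 123 of 360 embryo peaks (95% exact interval 29.3 to 39.3%) and 2 of 386 endosperm peaks (0.0628 to 1.86%). With length, both shares fell up to 3000 bp. Peaks under 600 bp lacked a partner in 76.9% of embryo and 41.5% of endosperm cases, and peaks of 2000 to 3000 bp in 8.42% of embryo and 7.02% of endosperm cases. At 3000 bp and above the shares were 9.95% for embryo and 5.73% for endosperm. By score, the embryo-only share fell too. It was 56.4% below 100, 41.5% from 100 to 200, 30.5% from 200 to 400 and 18.9% from 400 to 800. The endosperm-only share in these classes was 40.8%, 16.5%, 3.38% and 0.313%. At 800 or more, 12 of 119 embryo peaks were embryo-only, against 1 of 188 endosperm peaks that were endosperm-only. Under 5 RPM the shares were 72.9% for embryo and 47.7% for endosperm, and at 40 RPM or more 10.9% and 4.30%.

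**Figure D1:**
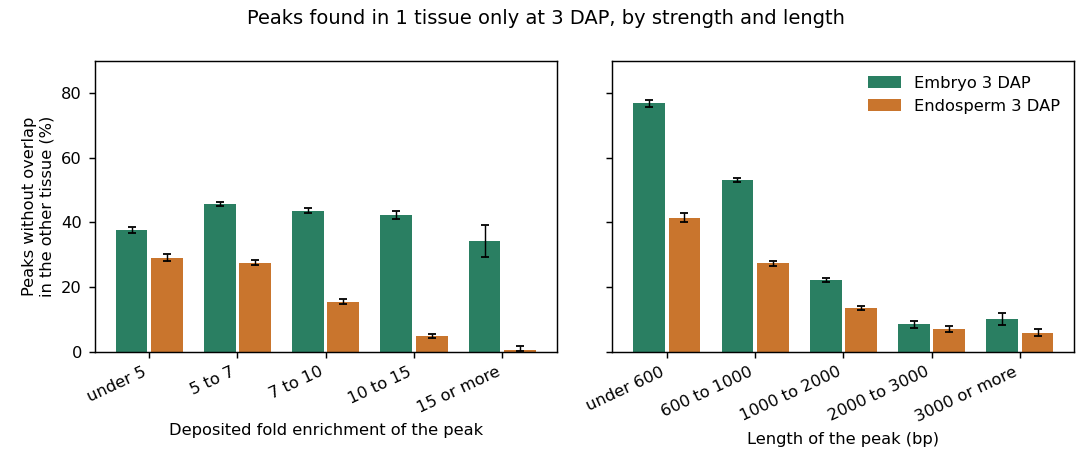
Percent of the peaks of each tissue at 3 DAP without a 1 bp overlap in the other list, by the fold enrichment deposited with the peak (left) and by peak length in bp (right), with embryo in green and endosperm in orange. Error bars are 95% exact binomial intervals. The embryo bars stay between 34.2% and 45.7% over the classes of fold enrichment, while the endosperm bars fall to 0.518%. By length, both fall up to 3000 bp. By score, which is not drawn, the embryo-only share falls too.

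The unmatched peaks with the most tags were long and weakly enriched. Ranking by total tags favours long peaks, so their length follows in part from the ranking. The first 5 embryo-only peaks by tags were 6757 to 8309 bp long, with scores of 50.69 to 171.03 and fold enrichments of 2.86 to 3.50. The first, on chromosome 8 from 28423844 to 28431252, had 1162 tags. The second, on chromosome 5 from 29803363 to 29810119, had 1118. Then came chromosome 8 at 9153725 to 9161977 (981 tags), chromosome 1 at 22400543 to 22408534 (887 tags) and chromosome 5 at 13854407 to 13862715 (870 tags). The last of these was also the longest embryo peak. The first 5 endosperm-only peaks by tags were 6698 to 8735 bp long, with scores of 56.75 to 171.76 and fold enrichments of 2.33 to 4.01. At their head was chromosome 10 at 12905495 to 12914229 with 1340 tags. It was followed by chromosome 6 at 26050923 to 26059200 (1275 tags), chromosome 11 at 14790825 to 14799439 (1259 tags), chromosome 10 at 8896353 to 8903050 (1111 tags) and chromosome 3 at 22555275 to 22562502 (1037 tags). The first of these was the longest endosperm peak. None of these 10 peaks was listed in every other library of its own tissue and in no library of the other tissue. Those on chromosome 10 from 12905495 and on chromosome 6 were in none of the other 6 lists, and the embryo-only peak on chromosome 5 from 29803363 was listed in endosperm at 2 DAP with 797 tags and at 6 DAP with 1129 tags.

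Ranked by score instead, a choice made after the values were seen, the leading embryo-only peaks were short and sharp. On chromosome 7 from 2462321 to 2463405 the embryo peak had 193 tags, a score of 1028 and a fold enrichment of 16.3, and the nearest endosperm peak lay 17263 bp away. The next 4 lay on chromosome 3 at 24230004 to 24231121 (210 tags), on chromosome 1 at 30847569 to 30848959 (264 tags) and at 34666645 to 34667690 (177 tags), and on chromosome 7 at 466406 to 467394 (182 tags). All 5 were also in embryo at 6 and 9 DAP with much the same level, for example 24.4 and 23.6 RPM for the first, beside 23.9 RPM at 3 DAP. In endosperm, 3 of the 5 had a small peak in 1 other list. These were the first at 2 DAP with 4.98 RPM, the one on chromosome 3 at 9 DAP with 5.63 RPM and the one on chromosome 1 from 34666645 at 2 DAP with 4.24 RPM.

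The leading endosperm-only peaks by score began with chromosome 12 at 20497608 to 20500956, with 787 tags and a score of 953. The others were chromosome 9 at 14432103 to 14434301 (241 tags), chromosome 1 at 16744870 to 16748100 (325 tags), chromosome 8 at 12938839 to 12940777 (208 tags) and chromosome 2 at 999208 to 1000091 (109 tags), with scores of 482 to 526. The last 4 were in all 3 other endosperm lists and in neither other embryo list. The peak on chromosome 9, for example, had 33.8, 33.2, 37.9 and 27.3 RPM in endosperm at 2, 3, 6 and 9 DAP. The first was in no other list.

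Embryo-only peaks lay farther from endosperm peaks than the reverse, and the more numerous embryo-only regions stood more often in runs. The median distance to the nearest peak of the other tissue was 3497 bp for embryo-only and 1834 bp for endosperm-only peaks. It was under 1 kb for 19.6% of embryo-only and 33.5% of endosperm-only peaks, and over 10 kb for 16.4% of embryo-only and 4.49% of endosperm-only peaks. The embryo list is the denser one, and the part of that in these distances and in the runs described next was not tested. Peaks of both lists were merged into 58203 regions, 38.3% of them embryo-only, 13.4% endosperm-only and 48.4% shared. Along the chromosomes, 45.1% of embryo-only regions stood in runs of 3 or more with no other region between them, against 9.09% of endosperm-only regions. Runs of 5 or more numbered 650 in embryo and 13 in endosperm. The longest embryo run lay on chromosome 3 from 4767569 to 4870537, with 18 peaks over 103 kb. Embryo lists at 6 and 9 DAP had 15 and 17 peaks there, and the endosperm lists 0, 0, 0 and 1 at 2, 3, 6 and 9 DAP. The longest endosperm run, on chromosome 7 from 11653244 to 11676709, had 7 peaks over 23.5 kb. Embryo had 0, 2 and 1 peaks in it at 3, 6 and 9 DAP, and endosperm at 2, 6 and 9 DAP had 3, 7 and 4.

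Most embryo-only peaks at 3 DAP were found again in the later embryo and not in endosperm of any age. They were overlapped in embryo at 6 DAP in 85.3% of cases and at 9 DAP in 86.9%, close to the 90.4% and 89.5% of embryo peaks shared with endosperm. In endosperm at 2, 6 and 9 DAP they were overlapped in 10.9%, 11.2% and 11.5% of cases, against 81.5%, 89.4% and 87.7% of the shared embryo peaks. Both later embryo lists and none of the 3 other endosperm lists held 14274 of the 22277, or 64.1%, against 29.2% of all embryo peaks. Embryo-only peaks were chosen for absence from endosperm at 3 DAP, and the part of that choice in their low endosperm rates was not tested. The rate in the later embryo lists rose with score. At a score of 200 or more, all 4059 embryo-only peaks were overlapped in embryo at 6 DAP and at 9 DAP. With 0 of 4059 missing, an approximate upper limit for counting error is 3 of 4059, or 0.0739%. The rate for all embryo peaks at this score is not given here, so these values do not set embryo-only peaks apart. In endosperm, 10.9% to 11.6% of these strong peaks were overlapped, much as for the weaker ones.

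Endosperm-only peaks recurred less. They were overlapped in endosperm at 2, 6 and 9 DAP in 50.7%, 65.1% and 68.3% of cases, against 81.7%, 89.5% and 87.6% of the endosperm peaks shared with embryo. Embryo at 6 and 9 DAP overlapped 26.2% and 23.4% of them. The lists searched differed in size, with 53391 and 55242 peaks in embryo at 6 and 9 DAP. Those of endosperm held 32986, 36871 and 36132 peaks at 2, 6 and 9 DAP. The part of list size in these rates was not tested. Peaks in all 3 other endosperm lists and in neither later embryo list numbered 1449 of 7777, or 18.6%, against 5.58% of all endosperm peaks. Here a peak was required in 3 lists of the same tissue, against 2 for embryo-only peaks, so the patterns are not equally strict. The choice of peaks absent from embryo at 3 DAP also bears on this share, and its part was not tested. Among the 281 endosperm-only peaks scoring 200 or more, 89.0%, 98.2% and 97.5% were found in endosperm at 2, 6 and 9 DAP, but 39.5% and 35.9% were also found in embryo at 6 and 9 DAP. For all endosperm peaks at this score the rates are not given here either.

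**Figure D2:**
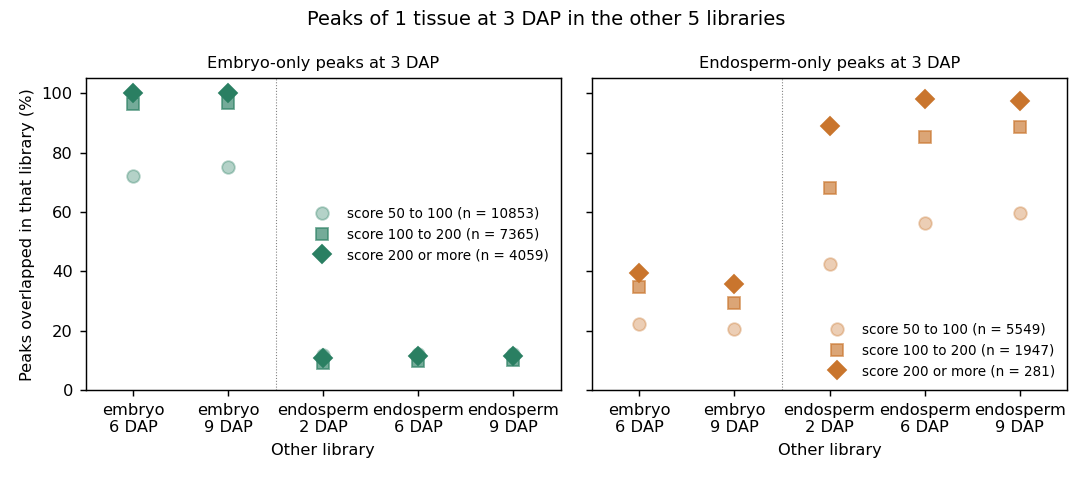
Percent of the embryo-only peaks (left) and endosperm-only peaks (right) at 3 DAP that a peak of each other library overlapped by at least 1 bp, by the score of the peak at 3 DAP. Strong embryo-only peaks reach 100% in both later embryo libraries and stay at 10.9% to 11.6% in endosperm, while strong endosperm-only peaks reach 89.0% to 98.2% in endosperm and 35.9% to 39.5% in embryo.

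Where peaks of both tissues overlapped, most of their summits lay close together. Of 28149 shared regions, 26616 (94.6%) held 1 peak of each tissue. In these, summits were a median of 40 bp apart and within 100 bp in 73.3% of pairs, but over 500 bp apart in 9.48%. Median lengths were 1061 bp in embryo and 1038 bp in endosperm, and the embryo peak was the longer one in 49.2% of pairs. The greater median length of the endosperm list as a whole did not appear in these pairs. Peaks at least 2 times as long as their partner numbered 550 in embryo and 820 in endosperm. Regions with several embryo peaks under 1 endosperm peak numbered 957, against 469 with several endosperm peaks under 1 embryo peak.

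Tag levels in shared regions were slightly lower in embryo than in endosperm. A level counts only the tags inside the listed peaks of that tissue, so where the peaks differ in length it compares stretches of different length, and the ratio is not a fold change over the same bases. The median level was 11.5 RPM in embryo and 12.1 RPM in endosperm, the median log2 difference was -0.23, and 64.0% of regions were higher in endosperm. Levels are shares of the tag total of a library, so tags in unmatched peaks leave fewer for shared regions. Unmatched peaks held 30.7% of the peak tags in embryo and 12.2% in endosperm. The part of this in the lower embryo levels was not tested. A region of typical depth had 90 tags in embryo and 92 in endosperm, a ratio of 0.882 with a 95% exact interval of 0.652 to 1.19. Embryo was at least 2-fold higher in 1995 shared regions (7.09%), and endosperm in 2052 (7.29%). A 4-fold difference was reached by 135 regions in favour of embryo and 103 in favour of endosperm. Peak extent differed along with the level. Regions 2-fold higher in embryo had medians of 1162 bp of embryo peak and 737 bp of endosperm peak, and regions 2-fold higher in endosperm had 1064.5 bp of embryo peak and 2079.5 bp of endosperm peak. Per kb covered, 536 regions were at least 2-fold higher in embryo and 184 in endosperm. Centred on the median of all shared regions, the counts were 3138 for embryo and 1051 for endosperm, so the balance between the directions depends on the scaling.

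The difference grew with tag level. Shared regions were ranked by the mean level of both tissues and divided into 5 equal parts. From the lowest to the highest part the median log2 difference was -0.02, -0.04, -0.15, -0.29 and -0.50. In the highest part, above 22.0 RPM, 0.888% of regions were at least 2-fold higher in embryo and 13.7% in endosperm, and the median region was 2665.5 bp long. In the second part, from 7.46 to 10.1 RPM, the shares were 12.0% for embryo and 5.28% for endosperm. A region needs a listed peak in both tissues to be shared, and the part of that limit in the lowest levels was not tested. Per kb covered, the medians ran the same way, at -0.07, -0.08, -0.14, -0.22 and -0.34.

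**Figure D3:**
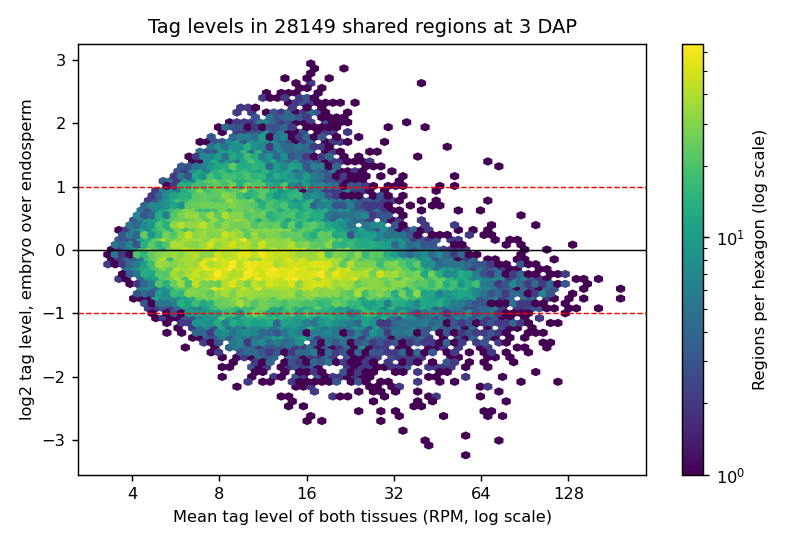
Each hexagon counts shared regions at 3 DAP by the mean tag level of both tissues (RPM, log scale) and the log2 of embryo over endosperm RPM. Dashed lines mark 2-fold differences. The cloud centres below 0 (median -0.23) and drops further at high levels, to a median of -0.50 in the highest of 5 parts.

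The regions with the largest differences paired a long peak in 1 tissue with a short one in the other. The highest ratio was on chromosome 8 from 25098442 to 25100020, with 231 tags over 1579 bp in embryo and 27 tags over 489 bp in endosperm, a tag ratio of 7.71. Per kb covered the ratio was 2.39, since tags outside the short endosperm peak were not counted. The next were chromosome 2 at 1586768 to 1589812 with 299 tags in embryo and 37 in endosperm, chromosome 6 at 7108231 to 7110041 (246 in embryo, 31 in endosperm), chromosome 7 at 25923290 to 25925080 (233 in embryo, 31 in endosperm) and chromosome 12 at 23346703 to 23348377 (191 in embryo, 26 in endosperm). All 5 were above 22.0 RPM in each embryo library, and no endosperm library had more than 12.9 RPM there. Per kb covered, their ratios ranged from 1.69 to 2.58.

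Largest in favour of endosperm was chromosome 2 from 13573272 to 13580828, with 89 tags over 1089 bp in embryo and 760 tags over 7557 bp in endosperm, a tag ratio of 0.106. Per kb covered the densities were 10.1 RPM in embryo and 13.8 RPM in endosperm, a ratio of 0.733. Next came chromosome 11 at 14731961 to 14737308 with 70 tags in embryo and 535 in endosperm, chromosome 9 at 13679168 to 13683745 (74 in embryo, 538 in endosperm), chromosome 12 at 22150486 to 22158263 (130 in embryo, 931 in endosperm) and chromosome 8 at 12963160 to 12969930 (102 in embryo, 709 in endosperm). Per kb covered, the ratios of 4 of these 5 regions lay between 0.679 and 0.787, and that on chromosome 9 turned to 1.10. The region on chromosome 11 had 68.0, 73.6, 82.4 and 75.8 RPM in endosperm at 2, 3, 6 and 9 DAP. Embryo had 8.68, 14.2 and 30.9 RPM there at 3, 6 and 9 DAP. The other 4 regions had no listed peak in endosperm at 9 DAP, and 2 of them none at 2 DAP.

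Where both tissues still had a peak, most 2-fold differences at 3 DAP kept their direction later. Of the 1995 regions higher in embryo, 1438 had peaks of both tissues at 6 DAP and 97.7% of these were again higher in embryo, with a median log2 difference of 1.25. At 9 DAP it was 96.8% of 1329, with a median of 1.28. Another 27.3% at 6 DAP and 32.6% at 9 DAP had a peak in embryo and none in endosperm, and 5 regions at 6 DAP and 8 at 9 DAP had the reverse. Of the 2052 regions higher in endosperm, 97.4% of the 1637 with both peaks at 6 DAP and 97.4% of the 1576 at 9 DAP were again higher in endosperm, with medians of -1.09 and -1.21. Of the 2052, 3.56% at 6 DAP and 6.04% at 9 DAP had a peak in embryo and none in endosperm, and 14.3% and 15.1% had a peak in endosperm and none in embryo. Among all shared regions with both peaks the share higher in embryo was 34.2% at 6 DAP and 38.8% at 9 DAP. Levels at 6 and 9 DAP were summed over whole peaks touching the region.

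Along the chromosomes, the embryo-only share of embryo peaks was higher toward the ends, while the endosperm-only share of endosperm peaks varied little. Chromosomes were divided into 10 equal parts, from base 1 to the last listed peak. The embryo-only share of embryo peaks was 47.7% in the first part, 30.3% in the fourth, 30.1% in the fifth and 56.7% in the last. The endosperm-only share of endosperm peaks stayed between 20.2% and 22.5% in all 10. In the outermost parts together, the embryo-only share exceeded that of the fourth and the fifth part on 12 of 12 chromosomes, with 43.9% to 58.5% in the outer parts and 21.2% to 43.5% in the inner parts. The endosperm-only share did so on 4 of 12. The first part was low on chromosome 9 (26.2%), chromosome 4 (31.3%) and chromosome 10 (31.5%), where the last part held 63.3%, 56.7% and 58.3%. The last part exceeded the first on 10 of 12 chromosomes. The exceptions were chromosome 11, with 40.9% in the last and 57.7% in the first part, and chromosome 3, with 57.5% in the last and 59.4% in the first. With equally long lists the embryo-only share was 41.6%, 23.3% and 51.2% in the first, the fifth and the last part, and the endosperm-only share 36.1%, 40.1% and 32.3%.

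Covered length followed. Embryo peaks covered 128 kb per Mb in the first part, 171 in the fourth and 120 in the last. Endosperm peaks covered 101, 176 and 75.9 kb per Mb in the same parts. The ratio of embryo to endosperm was 1.26 in the first part, 0.970 in the fourth, 0.985 in the fifth and 1.59 in the last. In shared regions the median log2 difference was -0.37 in both the fourth and the fifth part and -0.06 in the last, and the share at least 2-fold higher in embryo was 3.54% in the fourth part and 12.2% in the last.

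**Figure D4:**
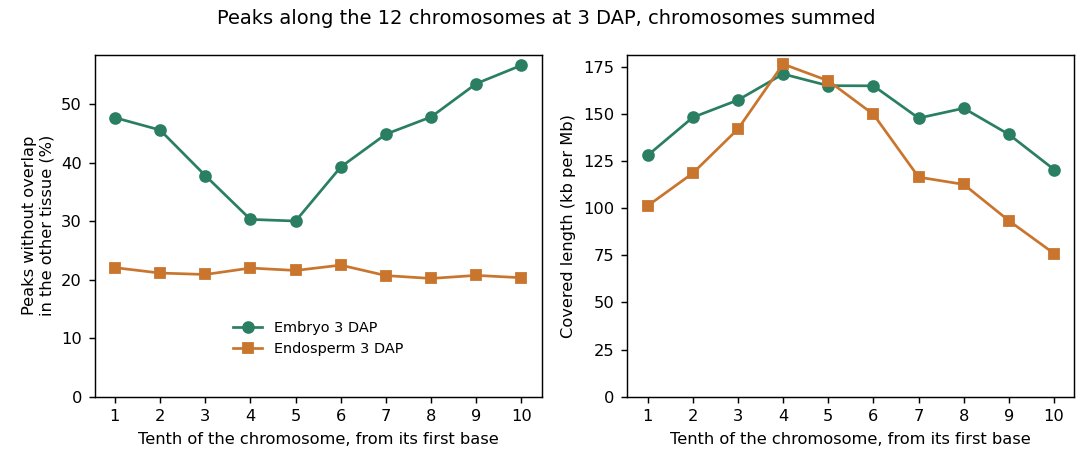
Percent of the peaks of each tissue without overlap in the other (left) and covered length in kb per Mb (right) in 10 equal parts of the 12 chromosomes, summed over chromosomes, with embryo in green and endosperm in orange. The embryo-only share dips to 30.1% in the fifth part and reaches 56.7% in the last, the endosperm-only share stays between 20.2% and 22.5%, and endosperm coverage varies more along the chromosome than embryo coverage.

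By chromosome, the embryo-only share ran from 38.0% on chromosome 12 to 49.8% on chromosome 3, and the endosperm-only share from 19.5% on chromosome 3 to 23.5% on chromosome 6. Chromosomes 3, 1 and 2 were the 3 with the most embryo-only peaks per endosperm-only peak, with ratios of 4.16, 3.55 and 3.36, and chromosome 12 had the lowest, 2.23. The embryo-to-endosperm ratio of covered length was 1.38 on chromosome 3, 1.33 on chromosome 1, 1.10 on chromosome 10 and 1.09 on chromosome 12. On chromosome 3, 10.8% of shared regions were at least 2-fold higher in embryo and 5.65% in endosperm. On chromosome 11 the shares were 4.18% for embryo and 7.71% for endosperm.

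Coverage was more even along the genome in embryo than in endosperm. Over 367 complete bins of 1 Mb, the covered length had a median of 151 kb in embryo and 115 kb in endosperm, and a coefficient of variation of 22.0% in embryo and 39.2% in endosperm. Embryo covered more in 288 bins and endosperm in 79. Embryo covered at least 1.5 times as much in 94 bins (25.6%), and endosperm in 0 bins (0%). With equally long lists, for which only embryo lost peaks, these counts turned to 14 bins for embryo and 31 for endosperm. Of the 288 bins with more embryo coverage, 251 had more at both 6 and 9 DAP, and of the 79 with more endosperm coverage 73 did.

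The bins that leaned most to embryo were on chromosome 3 from 4000001 to 5000000 with 134 kb in embryo and 47.4 kb in endosperm, chromosome 4 at 33000001 to 34000000 (135 kb in embryo, 59.9 kb in endosperm) and chromosome 9 at 20000001 to 21000000 (128 kb in embryo, 57.6 kb in endosperm). The first held 121 embryo-only, 7 endosperm-only and 43 shared regions and contains the longest embryo run. Leaning most to endosperm were chromosome 4 from 9000001 to 10000000 with 140 kb in embryo and 191 kb in endosperm, chromosome 5 at 12000001 to 13000000 (184 kb in embryo, 243 kb in endosperm) and chromosome 6 at 14000001 to 15000000 (83.4 kb in embryo, 107 kb in endosperm). The first of these held 29 embryo-only and 42 endosperm-only regions. Bins with more endosperm coverage lay in blocks. The longest were of 7 bins each, on chromosome 4 (6000001 to 13000000), chromosome 10 (3000001 to 10000000) and chromosome 11 (8000001 to 15000000), with ratios of 0.898, 0.916 and 0.941. The longest block with more embryo coverage was on chromosome 1 from 21000001 to 43000000, with a ratio of 1.51. Even among the 79 bins with more endosperm coverage, 60 held more embryo-only than endosperm-only regions.

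**Figure D5:**
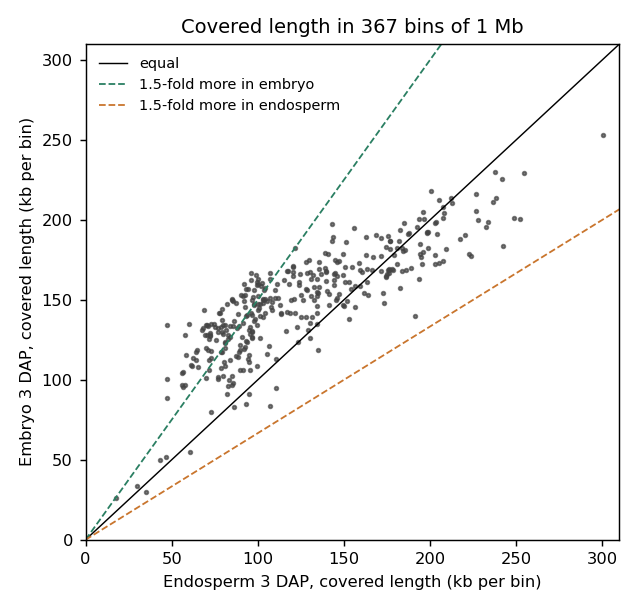
Covered length in kb of each 1 Mb bin at 3 DAP, with embryo on the vertical and endosperm on the horizontal axis, where each point is 1 of 367 bins. The solid line marks equal length and dashed lines 1.5-fold differences. Most bins with little endosperm coverage lie above the solid line, 94 bins at or above the 1.5-fold line, and most bins with over 200 kb in endosperm fall below the solid line.

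Shares of strongly different regions were lower at 3 DAP than later, while the covered-length ratio was 1.19, 1.17 and 1.17 and the median log2 difference -0.23, -0.28 and -0.17 at 3, 6 and 9 DAP. At least 2-fold differences took 7.09%, 8.34% and 9.97% of shared regions in favour of embryo at 3, 6 and 9 DAP, and 7.29%, 12.7% and 13.5% in favour of endosperm. The number of shared regions was 28149, 27419 and 26056. Bins covered at least 1.5 times as much in embryo numbered 94, 97 and 98. With 1 library per tissue and stage, these steps have no replicate check.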

How the data were processed

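The submitters' processing notes name Bowtie2 and MACS, with no roles. Each library was called alone and with no control in MACS 1.4.2, per the file headers, at a p-value limit of 1e-05, an effective genome of 360 Mb and a local background over 10 kb, with 41 bp tags, 200 bp fragments and 1 tag per position. A background from the same library can lower the fold and score of peaks in densely enriched stretches. The authors deposited for each peak its tag count (unscaled), length and summit in bp, score and fold enrichment (a ratio). The genome build is not given in the sources used here, nor is how reads were aligned. Depth was 8062289 filtered tags in embryo and 7268516 in endosperm at 3 DAP. Levels (RPM) were peak tags divided by filtered tags and multiplied by 1000000. Peaks of both lists sharing 1 bp were merged into regions. Coordinates are 1-based, and unplaced sequences (64 embryo and 53 endosperm peaks) were left out of bins and chromosome parts. Intervals are exact Clopper-Pearson intervals at 95%, or their conditional form for tag ratios. They cover counting error only, since each tissue had 1 library at 3 DAP. For tag ratios, PCR reads lacking molecular identifiers need not be independent molecules, even at 1 tag per position. Named were the 5 peaks per tissue without overlap and with the most tags, the 5 highest and 5 lowest ratios among shared regions of at least 50 tags, 3 bins each way, the longest peaks and the longest runs. The comparisons and lists were chosen with earlier results of these data known, and the ranking by score and the chromosome parts after the values were seen. The code, in Python 3.11.15 with numpy 2.4.6, pandas 2.3.3 and scipy 1.17.1, was tested on simulated data with planted overlaps and fold changes.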

Additional observations from a re-analysis of the deposited data

How the results depend on the processing

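No paired analysis was possible because each tissue had 1 library at 3 DAP. The restriction to peaks of at least 4 RPM kept all 8 main values (shares, counts, covered-length ratio and median) within the limits set for them. Joining peaks of a list closer than 500 bp and the settings for parts of the chromosomes were chosen after seeing the data. The share of embryo peaks without an endosperm peak was 48.2% at a score of at least 100, 50.1% at a fold enrichment of at least 5, 37.1% with equal numbers of highest-scoring peaks, 44.8% when 50% of the peak had to be covered, 34.8% when a peak within 1000 bp counted as a partner and 41.3% with near peaks joined. In the same order the endosperm shares were 27.7%, 27.3%, 36.9%, 24.3%, 14.2% and 19.4%. Equal numbers make the shares of both tissues near-equal by construction. They reversed the covered-length ratio to 0.915. Only the embryo list lost peaks, which can only lower this ratio, but how far it fell was not fixed by the construction. It was 1.15 at a score of at least 100 and 1.31 at a fold enrichment of at least 5. Regions at least 2-fold higher in embryo numbered 623 at a score of at least 100, 536 per kb covered and 3138 when centred. Those higher in endosperm numbered 1160 at that score, 1218 at a fold enrichment of at least 5, 184 per kb covered and 1051 when centred. Median log2 differences were -0.26 at a score of at least 100, -0.15 at a fold enrichment of at least 5, -0.17 with equal numbers, -0.29 when levels were scaled to the tags in peaks, -0.18 per kb covered, 0 when centred (by construction), -0.22 in regions with 1 peak of each tissue and -0.22 with near peaks joined. Bins covered at least 1.5-fold more in embryo numbered 14 with equal numbers, 198 of 740 at 500 kb and 42 of 179 at 2 Mb. Those covered more in endosperm numbered 3 at a score of at least 100, 31 with equal numbers and 2 at 500 kb. For these changes the cause was not tested unless named.

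The embryo-only share was lower in the fifth of 10 chromosome parts than in the first and last under each of the 5 settings tried, for example 34.1% against 52.4% and 61.2% at a score of at least 100. Endosperm-only shares in those 3 parts ranged from 18.8% to 29.7% under the settings other than equal numbers. A typical shared region held 90 tags in embryo and 92 in endosperm, and depth was not varied.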

Other observations

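The endosperm-only peak with the highest score stood apart from the rest of its list. It lay on chromosome 12 from 20497608 to 20500956 (3349 bp) and had 787 tags, 108 RPM or 32.3 RPM per kb, with a score of 953 that ranked 66 among the 36511 endosperm peaks at 3 DAP. None of the other 6 libraries had a listed peak there, including endosperm at 2 DAP, 1 day earlier. The nearest peak lay 10220 to 10321 bp away in each of the 7 lists, and within 50 kb on either side the lists held 4 to 6 peaks each. Of the 926 endosperm peaks at 3 DAP found in no other list, 2 had a score of 200 or more, and the second of them had 246. In the embryo library at 3 DAP, 1169 peaks were found in no other list, and 0 of them had a score of 200 or more; the highest, on chromosome 10 from 21506269 to 21510273, had 169. The other 5 libraries had between 1 and 91 such peaks with a score of 200 or more, and the 91 were in endosperm at 2 DAP. The value on chromosome 12 was chosen after it was seen, and with 1 library it has no replicate check.

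Few unmatched peaks were listed mainly in the other tissue. They were chosen for absence from the other tissue at 3 DAP, which by itself can lower the shares below relative to all peaks. Of the 22277 embryo-only peaks at 3 DAP, 66 (0.296%) were in all 3 other endosperm lists and in neither later embryo list, against 1.29% of all embryo peaks, and 540 (2.42%) were in all 5 other lists, against 38.1% of all embryo peaks. Of the 7777 endosperm-only peaks, 79 (1.02%) were in both later embryo lists and in no other endosperm list, against 2.31% of all endosperm peaks, and 509 (6.54%) were in all 5 other lists, against 53.1% of all endosperm peaks.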
